A study of Homo sapiens with 35 samples.

Results

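The 8 transporters described here are the multidrug efflux pumps of the ATP-binding cassette (ABC) superfamily, chosen by name as ABCB1, ABCC1, ABCC2, ABCC3, ABCC4, ABCC5, ABCC10 and ABCG2. Each was represented by its protein-coding entry, and all 8 were among the 19665 protein-coding entries of the count table, of which 17999 had a count in at least 1 of the 35 libraries and were tested. RPMI-8226 cells, an established plasma cell line derived from multiple myeloma (MM), were given 750 nM of the proteasome inhibitor carfilzomib for 1 h, and RNA was taken on days 0, 1, 2, 4, 6, 8 and 10. Each day was covered by 5 subcultures of a single expanded culture, so the p-values measure the spread between subcultures of that culture and not between separate experiments. The labels list carfilzomib for day 0 as well, but the methods place the day 0 collection before the drug was added, and day 0 served as the untreated control. From day 2 on, cells were taken just before their medium was renewed, and cell density was adjusted on days 6 and 8, so that time after the pulse and these steps cannot be told apart.

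ABC exporters use ATP to push substrates out of the cell through the plasma membrane. ABCB1 (P-glycoprotein) pumps bulky hydrophobic drugs, of which carfilzomib is one, the ABCC members (multidrug resistance-associated proteins, MRPs) carry mainly organic anions and conjugates of glutathione, glucuronate or sulfate, and ABCG2 (breast cancer resistance protein, BCRP) exports urate, porphyrins and several topoisomerase poisons. Their mRNA levels are often followed in MM because efflux is one route by which plasma cells tolerate drugs, although a transcript level does not measure transport.

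The libraries held 6519392 to 10962890 estimated counts, of which 5373835 to 9307889 were protein-coding, and no library duplicated another of its day. Levels are given as CPM (protein-coding counts scaled to a common library size) after scaling with TMM factors, and differences as log2 fold changes with a Benjamini–Hochberg adjusted p (Q) from the quasi-likelihood test of edgeR over all 17999 entries. A member was called at Q ≤ 0.05. The plasma cell genes were present on day 0, with SDC1 at 305 CPM, IRF4 at 462 CPM, XBP1 at 441 CPM and MZB1 at 417 CPM. Of the 8 plasma cell markers, 5 were called lower and 0 higher on day 1, and 3 higher and 2 lower by day 10, where over all entries 25.4% were higher and 27.3% lower on day 1 and 16.1% were higher and 15.8% lower on day 10. Of the 6 markers of other cell types, HBB was at 0 CPM, LYZ, CD14 and COL1A1 lay between 0.10 and 0.67 CPM and CD3E was at 3.35 CPM, whereas the epithelial marker EPCAM was at 58.7 CPM on day 0 and at 78.9 to 89.9 CPM on the later days. Of these 6, 1 (EPCAM) was called higher on both days 1 and 10, and 2 were called lower on day 1. The higher level of EPCAM accompanied those of ABCC4 and ABCC5 on every later day, and its part in any member's result was not tested.

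The sequences upstream of ABCC4 and ABCC5, which rose within 1 day of the pulse, and of ABCC2, which fell, are shown because these members moved in opposite directions in the same libraries. They come from RefSeq (GRCh38.p14), which held windows for 6 of the 8 members (not ABCC1 or ABCC3), and run 5′ to 3′ on the strand of the gene, up to the base before the outermost annotated exon. Capitals mark GCGTG, the core of the xenobiotic response element, and TGACNNNGC, the core of the antioxidant response element, found on either strand.
ABCC4, chr13:95301476-95301701, minus strand: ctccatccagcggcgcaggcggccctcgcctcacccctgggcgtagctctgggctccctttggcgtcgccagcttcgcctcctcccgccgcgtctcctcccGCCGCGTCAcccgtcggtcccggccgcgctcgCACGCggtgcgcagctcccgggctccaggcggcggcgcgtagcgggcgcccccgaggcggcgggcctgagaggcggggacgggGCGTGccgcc
ABCC5, chr3:184017940-184018134, minus strand: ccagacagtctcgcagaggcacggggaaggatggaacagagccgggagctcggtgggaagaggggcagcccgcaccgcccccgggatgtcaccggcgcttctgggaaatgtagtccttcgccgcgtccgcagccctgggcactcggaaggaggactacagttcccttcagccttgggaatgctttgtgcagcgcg
ABCC2, chr10:99782390-99782639, plus strand: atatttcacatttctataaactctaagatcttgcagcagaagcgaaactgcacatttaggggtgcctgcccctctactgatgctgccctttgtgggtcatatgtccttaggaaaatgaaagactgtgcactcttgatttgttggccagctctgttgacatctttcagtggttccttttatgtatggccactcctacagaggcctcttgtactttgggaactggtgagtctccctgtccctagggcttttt
Within the 250 bases before the start of the canonical transcript, the letters TGACNNNGC were present in the windows of ABCC4 and ABCC10 and in 10.9% of 35116 RefSeq windows, and GCGTG was present in those of ABCB1, ABCC4, ABCC10 and ABCG2 and in 32.2% of all windows. The amino acid response element core TGATGNAA was in no member window and in 3.14% of all, and the heat shock pair GAANNTTC was in that of ABCB1 and in 5.78% of all. The windows of ABCC5 and ABCC2 held none of these letters. For ABCG2 an annotated exon reached the outermost base of the window, so none of it is printed. These matches are descriptions of letters and not of binding.

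The 8 transporters fell into 3 tiers of abundance. ABCB1 (GRCh38 chr7:87503017-87713323, minus strand, 28 exons in the canonical transcript) and ABCC3 (chr17:50634777-50692253, plus strand, 31 exons) were too low to judge, meaning a mean count under 10 on their highest day or failure of the filterByExpr criterion. Both conditions held for each of them. ABCC2 (chr10:99782640-99852594, plus strand, 32 exons) was low but met both limits, which were applied to its highest day, day 0 (mean 19 counts). Its mean was 13.4 counts on day 6 but 6.8 to 8.6 on the other days, under the limit of 10. ABCC1 (chr16:15949138-16143257, plus strand), ABCC4 (chr13:95019835-95301475, minus strand), ABCC5 (chr3:183919934-184017939, minus strand), ABCC10 (chr6:43427366-43450427, plus strand) and ABCG2 (chr4:88090150-88231628, minus strand) had 5800 to 20127 counts over the 35 libraries. The library kit keeps the strand, but the strand setting of the counting is not given in the sources used here, and members share ground with genes on the opposite strand. ABCB1 overlaps RUNDC3B, which had 116 counts over all libraries, and ABCC10 overlaps DLK2, which had 567. ABCC5 overlaps the lncRNA ABCC5-AS1 and ABCC4 an lncRNA without a symbol, neither of which was matched in the table. The opposite-strand neighbours of ABCC1, ABCC2 and ABCG2 are pseudogenes and small nuclear RNAs, which had at most 1 count where they were matched.

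ABCB1, which encodes P-glycoprotein, had 25 counts in all. On day 0 its 5 libraries held 5, 0, 4, 2 and 1 counts, and the sums over the 5 libraries of days 1, 2, 4, 6, 8 and 10 were 2, 3, 1, 2, 2 and 3. Every later day had libraries at 0, as did day 0, so the groups overlapped on each day. With 12 counts on day 0 against 3 on day 10, the ratio of the day 0 level to the day 10 level was 4.34, with an exact 95% counting interval from 1.17 to 24.0 that leaves out variation between cultures. The fitted difference passed Q ≤ 0.05 only on day 4 (Q = 0.0268), where the group held 1 count, and that call was lost with DESeq2 (Q = 0.111). ABCB4, its closest relative in the genome and a phospholipid transporter, was also near the limit of detection with 26 counts over the day 0 libraries and 1 over those of day 1, and reads shared by the pair may have been divided between them by the estimation.

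ABCC3, which exports glucuronide conjugates and is best known in liver and gut, was the other member without usable signal. Its protein-coding entry had 3 counts in 35 libraries, 1 each on days 2, 8 and 10. On day 0 there were 0 counts in the 5 libraries, and 3 counts, the limit that a count of 0 allows, would correspond to 0.103 CPM. More of its reads were assigned to retained-intron transcripts, with sums over 5 libraries of 7, 11, 18, 8, 9, 7 and 7 counts on days 0, 1, 2, 4, 6, 8 and 10. No change in ABCC3 could be judged at this depth.

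**Figure D1:**
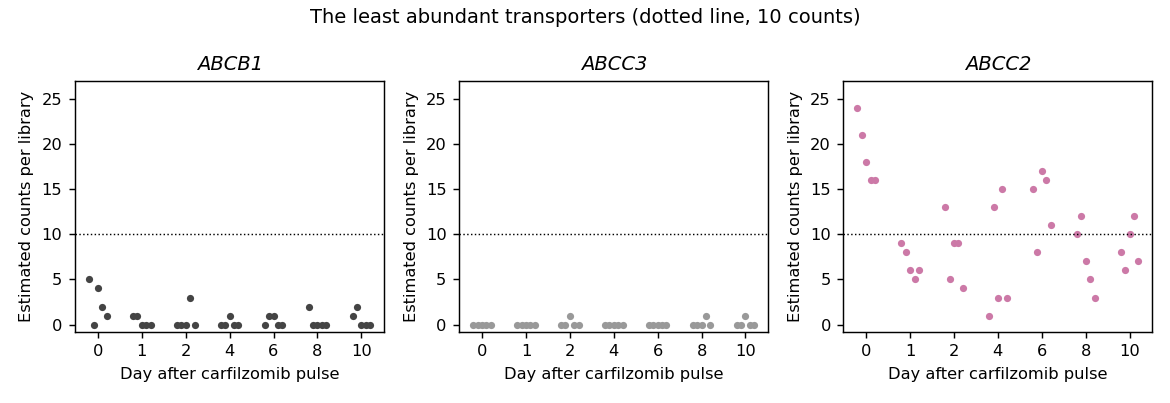
Estimated counts per library of the 3 least abundant transporters (y axis) on each day (x axis), with 1 point per library, 5 per day, and a dotted line at 10 counts. ABCB1 never exceeded 5 counts and ABCC3 never exceeded 1, whereas ABCC2 lay between 16 and 24 counts on day 0 and lower in most libraries afterwards.

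Per length, which allows genes to be compared, ABCC1 was the most abundant member on day 0 at 13.9 ± 0.332 CPM per kilobase of the canonical transcript (SD, n = 5). ABCG2 followed at 8.51 and ABCC4 at 6.22 CPM per kilobase, and then ABCC10 at 4.53, ABCC5 at 3.19 and ABCC2 at 0.558 CPM per kilobase. On day 2, ABCG2 stood highest of the members at 20.2 ± 1.16 CPM per kilobase, above ABCC4 at 13.6 and ABCC1 at 13.4. On day 10, ABCC1 was again the highest at 13.3 CPM per kilobase, with ABCG2 at 10.6 and ABCC4 at 9.17. This ranking depended on the length chosen. With the median length of a gene's coding transcripts, ABCC5 ranked highest on day 1 at 29.5 CPM per kilobase and ABCC4 ranked highest from day 2 on, while ABCC1 kept the top place on day 0 under both lengths. The length of the transcripts that these cells used was not measured.

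**Figure D2:**
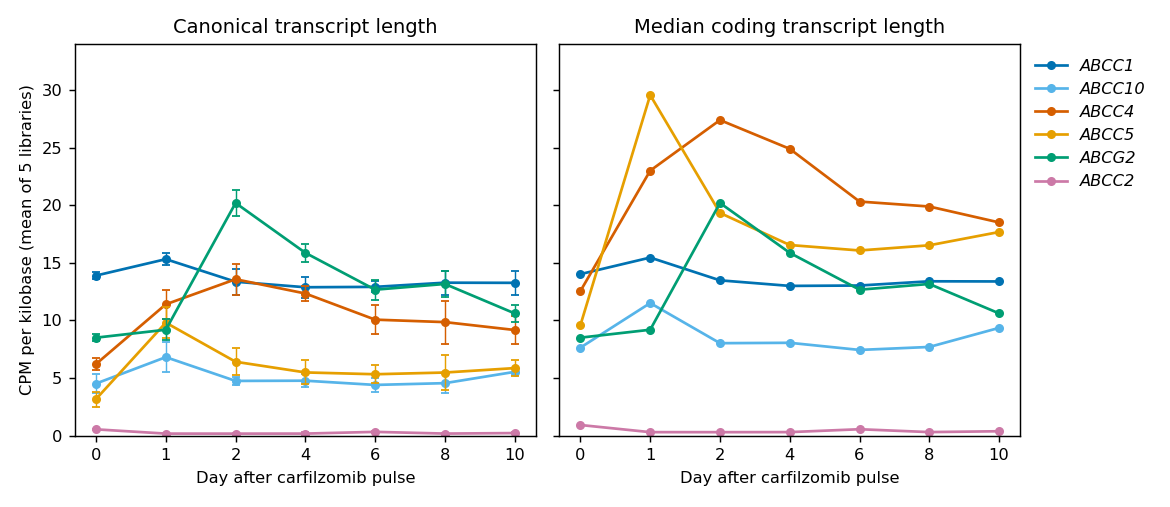
Mean level of 6 transporters per kilobase of transcript (y axis, CPM per kilobase) by day (x axis), with the length of the canonical transcript on the left, where bars give the SD of 5 libraries, and the median length of the coding transcripts on the right. On the left ABCG2 peaks at 20.2 on day 2, and on the right ABCC5 peaks at 29.5 on day 1.

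The share of transporters that differed from day 0 is coarse, since 1 of the 8 members is 12.5%. As called, it lay above that of all entries on each day, but on days 1, 2 and 6 by less than 1 member. On day 1, 5 of the 8 members (62.5%) were called, 4 higher and 1 lower, against 52.7% of all entries. The 4 higher members included ABCC1 at the edge of the threshold (Q = 0.0463), a call that several other settings lost. By direction, 50% were higher and 12.5% lower on day 1, beside 25.4% and 27.3% of all entries. The shares of day 10 were 37.5% and 12.5%, beside 16.1% and 15.8%. The median log2 fold change of the 8 members was 0.13 on day 1 and 0.30 on day 10, or 0.14 and 0.29 without ABCC3, beside -0.06 and -0.02 over all entries tested. At day 2 there were 4 called members (50%, all entries 47.7%). Day 4 had 5 (62.5%, all entries 39.1%), 1 of them ABCB1, which was too low to judge. Day 6 had 3 (37.5%, all entries 34.5%). Days 8 and 10 had 4 each (50%, all entries 36.8% and 31.9%). With a fold change above 2 required as well, the called members were ABCC2 and ABCC5 on day 1 (20.4% of all entries), ABCC2, ABCC4 and ABCG2 on day 2 (15.3%), and ABCB1, at its few counts, and ABCC2 on day 4 (9.41%). Day 6 had 0 (6.71%), and ABCC2 was the 1 such member on days 8 and 10 (8.18% and 5.93%). ABCC4 and ABCC5 were called higher on each of these 6 days, ABCG2 on the 5 days from day 2, and ABCC2 was called lower on every day except day 6. Since these are bulk samples, a changed level in each cell and a changed share of cells that express the gene cannot be told apart.

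Among the successive steps after day 1, that from day 1 to day 2 had the most called members. From day 1 to day 2, 5 members were called (all entries, 39.6%), with ABCC4 and ABCG2 higher and ABCC1, ABCC5 and ABCC10 lower. From day 2 to day 4 only ABCG2 was called (30.6% of all entries), from day 4 to day 6 ABCC4 and ABCG2 (12.1%), and from day 8 to day 10 ABCG2 again (10.1%), each lower on the later day. From day 6 to day 8 edgeR called 0 members (2.56% of all entries), 0 had an unadjusted p under 0.05 and DESeq2 also called 0. At a fold change above 2, ABCG2 was the 1 member called from day 1 to day 2 (10.3% of all entries), and 0 members were called at the later steps (3.09%, 0.628%, 0.128% and 0.678%). ABCG2 was the member with a call at 4 of the 5 steps after day 1.

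**Figure D3:**
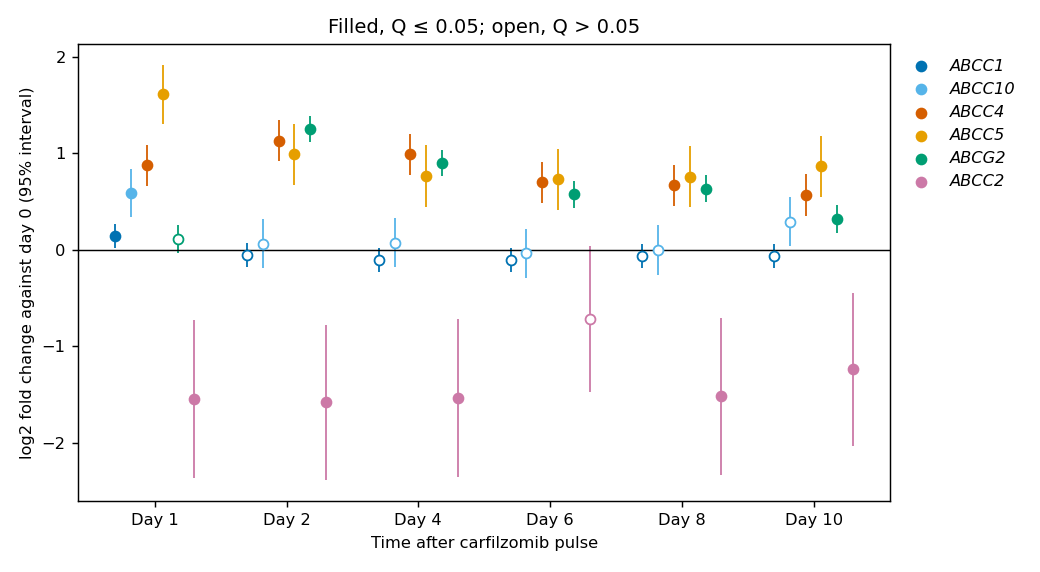
Log2 fold change against day 0 (y axis) of 6 transporters on each later day (x axis), with 95% intervals from the edgeR fit of 5 libraries per day. Filled points passed Q ≤ 0.05 and open points did not. ABCC5 is highest on day 1 at 1.61, ABCG2 moves from 0.11 on day 1 to 1.25 on day 2, and ABCC2 stays below 0.

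ABCC5 (MRP5), an exporter of cyclic nucleotides and nucleotide analogs, showed the largest early rise of the members. Its level was 22.9, 19.0, 21.1, 14.2 and 15.0 CPM in the day 0 libraries and 68.2, 60.0, 49.3, 57.3 and 49.4 CPM in those of day 1. All 5 libraries of day 1 were above every library of day 0. The rise was 1.61 on the log2 scale (SE 0.15, Q = 3.65e-12), a 3.05-fold increase. On day 2 the libraries held 34.7, 33.4, 32.2, 49.0 and 36.5 CPM, a fall of 0.62 on the log2 scale from day 1 (SE 0.14, Q = 0.00026). Thereafter the day means stayed between 30.9 and 34.0 CPM, and on day 10, with 35.5, 30.7, 36.5, 29.0 and 38.2 CPM, ABCC5 was still 0.86 above day 0 on the log2 scale (95% interval 0.54 to 1.18, Q = 2.44e-05). Only day 4 overlapped with day 0, through 1 library at 22.8 CPM. In the order of its day means, day 1 differed from day 2 and day 6 differed from day 0, whereas no neighbouring pair among days 2, 10, 4, 8 and 6 differed beyond the spread.

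ABCC4 (MRP4), which exports cyclic AMP, prostaglandins and nucleoside analogs, had also risen by day 1 and reached its highest mean on day 2. Its level was 36.3, 34.6, 37.4, 40.9 and 33.1 CPM on day 0. The libraries of day 1 held 60.3, 63.4, 78.4, 69.5 and 62.2 CPM, and those of day 2 held 70.8, 84.4, 89.9, 72.8 and 79.6 CPM. Every library of every later day lay above every library of day 0, the lowest being 1 of day 8 at 43.0 CPM. The log2 fold change against day 0 was 0.87 on day 1 (SE 0.11, Q = 2.22e-09) and 1.13 on day 2 (SE 0.10, Q = 1.94e-12). It was 0.56 on day 10 (SE 0.11, Q = 4.84e-05), when the mean was 53.7 CPM. The step from day 1 to day 2 (0.26, Q = 0.0312) lost its call without any 1 of replicates 1, 2 and 5 of day 1 or 2 and 3 of day 2, and the fall from day 4 to day 6 (-0.29, Q = 0.0455) without any 1 of replicates 1, 4 and 5 of day 4 or 2, 3 and 5 of day 6, with Q from 0.0542 to 0.115 in these cases. Of the neighbouring days in the order of its means, only the lowest pair, day 10 and day 0, differed. Days further apart did differ. Against day 2 the level was lower on day 6 (-0.43, Q = 0.00027), day 8 (-0.46, Q = 0.000143) and day 10 (-0.57, Q = 7.74e-06), but not on day 4 (-0.14, Q = 0.302).

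ABCG2 (BCRP) rose later. Its day 0 libraries held 37.3, 36.0, 33.8, 36.5 and 35.4 CPM, and those of day 1 held 34.99, 44.2, 41.3, 36.7 and 36.2 CPM, with overlap and a log2 fold change of 0.11 (95% interval -0.04 to 0.26, Q = 0.205). Day 1 passed the threshold when library sizes were used without TMM factors (0.22, Q = 0.00788). Under that scaling the median of the entries passing filterByExpr was 0.12 on day 1, beside 0.01 with TMM factors. Day 1 also passed when all biotypes were summed (0.27, Q = 0.00539). ABCG2 has no other biotype, so the summing left its own counts unchanged and altered only the library totals, factors and fit. On day 2 the 5 libraries held 86.0, 82.5, 93.0, 82.5 and 80.7 CPM, more than in any other library of the series. The rise over day 0 was then 1.25 on the log2 scale (SE 0.07, Q = 1.86e-19), and that over day 1 was 1.14 (SE 0.07, Q = 4.01e-18). The level fell from day 2 to day 4 by 0.35 (Q = 2.04e-05) and from day 4 to day 6 by 0.32 (Q = 0.000466) on the log2 scale. It was nearly level from day 6 to day 8 (0.06, 95% interval -0.07 to 0.19) and fell by 0.31 from day 8 to day 10 (Q = 0.00111). On day 10 the libraries held 41.7, 47.9, 48.0, 43.7 and 42.0 CPM, all above the day 0 range, and the remaining difference was 0.32 (95% interval 0.18 to 0.46, Q = 0.000381). The order of the day means was day 2, 4, 8, 6, 10, 1 and 0, in which days 8 and 6 and days 1 and 0 were the neighbours that did not differ.

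**Figure D4:**
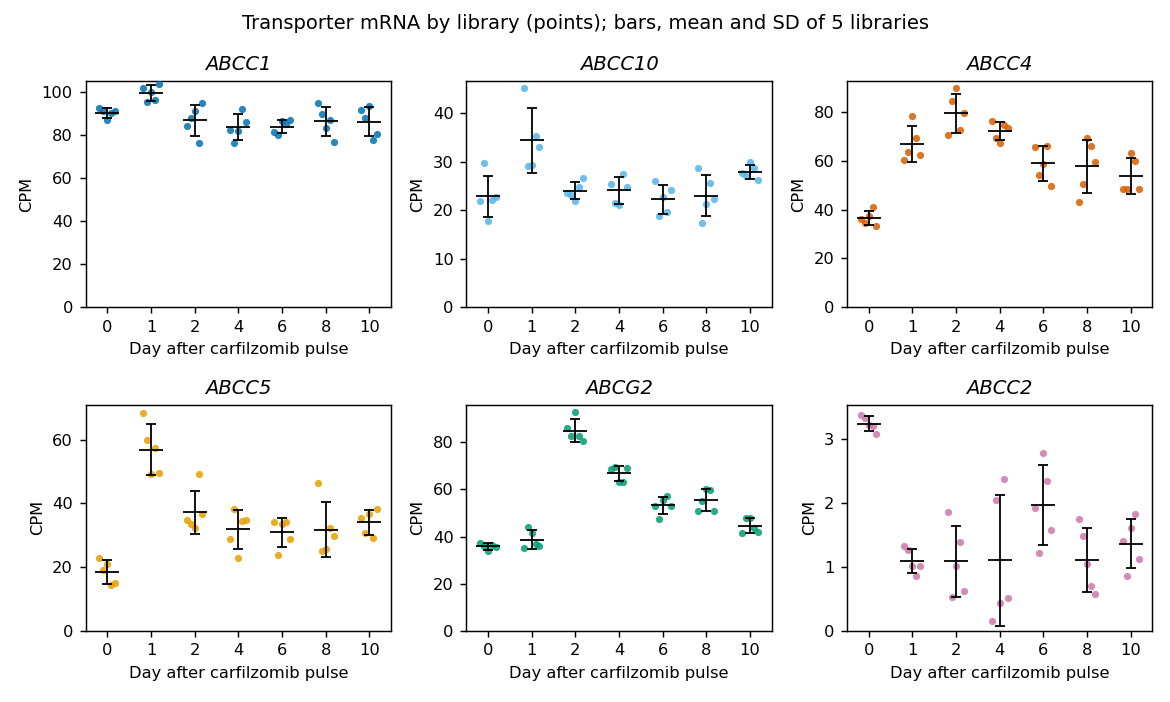
CPM of 6 transporters (y axis, 1 scale per panel, from 0) in each of the 35 libraries by day (x axis), with 1 point per library and bars for the mean and SD of 5 libraries. The day 1 maximum of ABCC5 (mean 56.8 CPM), the day 2 maxima of ABCC4 (79.5 CPM) and ABCG2 (84.9 CPM), and the drop of ABCC2 from a mean of 3.24 CPM on day 0 can be read from the points.

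ABCC2 (MRP2), the canalicular exporter of bilirubin glucuronides and glutathione conjugates in liver, was the member that fell. Its counts on day 0 were 24, 21, 18, 16 and 16, or 3.38, 3.33, 3.22, 3.21 and 3.08 CPM, and on day 1 they were 9, 8, 6, 5 and 6, or 1.32, 1.26, 1.02, 0.858 and 1.01 CPM. Every library of each later day was below every library of day 0. ABCC2 was kept through its high day 0 level, however, and its mean was under 10 counts on every later day except day 6. The level on day 1 fell by 1.55 on the log2 scale (SE 0.41, Q = 0.00112). With 95 counts over the day 0 libraries against 34 over those of day 1, the ratio was 2.95, with an exact 95% counting interval from 1.97 to 4.50. Similar differences held at day 2 (-1.58, Q = 0.000787), at day 4 (-1.54, Q = 0.0017) and at day 8 (-1.52, Q = 0.00197), and a difference of -1.24 was left by day 10 (Q = 0.0115). On day 6, with 67 counts in all, it was -0.72 (95% interval -1.48 to 0.04, Q = 0.14) and did not pass the threshold. Libraries of the same day ranged widely at these counts, from 1 to 15 counts on day 4, and no pair of neighbouring days in the order of the means differed.

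ABCC1 (MRP1), the leukotriene and glutathione conjugate exporter present in most cells, held a nearly constant level. The day 0 libraries lay at 92.7, 91.1, 86.9, 90.2 and 91.1 CPM, and the lowest and highest day means were 83.8 CPM (day 4) and 99.6 CPM (day 1). The day 1 libraries, from 95.5 to 104 CPM, were all above those of day 0, but the difference of 0.14 on the log2 scale (Q = 0.0463) was at the edge of the threshold. It missed the threshold with RLE factors (0.11, Q = 0.109), with filterByExpr, with DESeq2, and without any 1 of 8 of the 10 libraries, namely all 5 of day 0 and replicates 1, 3 and 5 of day 1 (0.11 to 0.14). From day 2 on, the difference from day 0 lay between -0.11 and -0.06, and on day 10 its 95% interval ran from -0.19 to 0.05. The fall from day 1 to day 2 was 0.20 on the log2 scale (Q = 0.00623).

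ABCC10 (MRP7), an exporter that transports taxanes and some conjugates, was higher on day 1 and close to its day 0 level afterwards. Its day 0 libraries held 21.9, 29.7, 17.9, 22.0 and 22.7 CPM, and its day 1 libraries held 45.3, 29.1, 29.3, 35.3 and 33.0 CPM. Of the 5 day 1 libraries, 3 were above all of day 0, and 2 lay just under the day 0 library at 29.7 CPM. The rise was 0.59 on the log2 scale (SE 0.12, Q = 7.73e-05), and it was followed by a fall of 0.53 from day 1 to day 2 (Q = 0.000362). On days 2 to 8 the difference from day 0 was between -0.04 and 0.07. On day 10 it was 0.29 (95% interval 0.03 to 0.54, Q = 0.0774), which passed the threshold without replicate 2 of day 0 (0.42, Q = 0.00951), without TMM factors (0.35, Q = 0.0304), with only the libraries of both days (0.30, Q = 0.0443) and with all biotypes summed (0.33, Q = 0.00147).

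ABCC10 also had a large share of counts outside the protein-coding entry. In the day 0 libraries, 34.5% ± 10.0 (SD, n = 5) of its counts were assigned to non-coding biotypes, mostly retained introns, with 323 counts of that biotype beside 671 protein-coding counts. The share was 27.5% ± 5.60 on day 1 and 32.9% ± 6.19 on day 10. Neither differed from day 0 in an exact two-sided permutation test (p = 0.254 and 0.778, adjusted p = 0.343 and 0.778 over 6 tests). For ABCC4 the share was 10.3% ± 3.58 on day 0 and 4.15% ± 3.45 on day 1, with an exact permutation p = 0.0317 that became 0.190 after adjustment, and 6.79% ± 4.62 on day 10 (p = 0.238, adjusted p = 0.343). On day 6 the share of ABCC4 was 0.556% to 1.10% in the 5 libraries, below the lowest day 0 library at 4.23%. All 5 day 6 libraries had 0 counts of the nonsense-mediated decay biotype of ABCC4, against a sum of 101 on day 0 and of 124 and 77 on days 4 and 8. This day was singled out after its values were seen and was not tested. For ABCC1 the share stayed near 1%, at 1.00% ± 0.875 on day 0, 1.66% on day 1 (exact permutation p = 0.175) and 1.67% on day 10 (exact permutation p = 0.286), with an adjusted p of 0.343 for each. ABCG2 had a protein-coding entry alone, and the other members had fewer than 100 counts in some libraries and were left out.

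**Figure D5:**
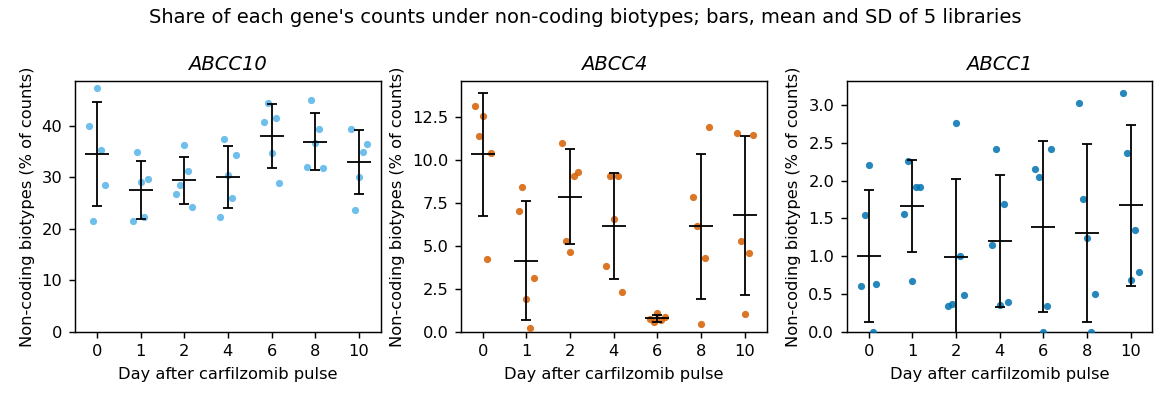
Share of each gene's counts assigned to non-coding biotypes (y axis, percent) in each library by day (x axis), for the 3 transporters with at least 100 counts per library and more than 1 biotype, with 1 point per library and bars for the mean and SD of 5 libraries. The 5 points of ABCC4 on day 6 lie between 0.556% and 1.10%, and those of ABCC10 on day 0 spread from 21.4% to 47.4%.

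The members did not share a single time course. Over the 7 day means of log2 CPM, Pearson's r was 0.76 between ABCC4 and ABCG2, 0.74 between ABCC4 and ABCC5, 0.15 between ABCC5 and ABCG2 and -0.88 between ABCC2 and ABCC4, as a description over 7 points that share libraries. Among 12295 other transcripts, those with the time course most like that of ABCG2 were TACC3 (r = 0.996 over the 7 days), KANK2 (0.994) and BUB1 (0.992). TACC3 and BUB1 encode a spindle protein and a kinetochore kinase. For ABCC5 they were TMSB15B (0.996), SIGLEC9 (0.995) and ZFP64 (0.992), for ABCC4 they were LXN (0.994), PACSIN2 (0.987) and TUFM (0.987), and for ABCC2 they were METAP2 (0.981), SLC25A28 (0.980) and PDZK1 (0.978). Pearson's r does not weigh the size of a change, and METAP2 spanned only 0.13 on the log2 scale over the 7 day means and SLC25A28 0.61, against 1.66 for ABCC2 itself and 2.23 for PDZK1. These are the highest of 12295 values over 7 points, given as a description without a test.

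The other genes of transport and conjugation were counted as lists. Of the 40 other ABC genes, 9 were higher and 12 lower on day 1, with a median log2 fold change of -0.20. On day 10, 6 were higher and 8 lower, with a median of -0.15, or -0.16 without the 5 genes that had no count on day 0, on day 10 or on both. As shares, 22.5% and 30% on day 1 and 15% and 20% on day 10 lay near those over all entries (25.4% higher and 27.3% lower on day 1, 16.1% and 15.8% on day 10). On day 1 the highest was ABCB6, a porphyrin transporter, at 3.11 (SE 0.59, Q = 1.43e-05), which went from a mean of 1.54 to 13.2 CPM. The lowest was ABCB4 at -4.17 (SE 1.22, Q = 0.000863), which rested on the few counts given above. On day 10 the highest was ABCF3, a cytosolic ATPase of the superfamily that does not span the membrane, at 0.54 (Q = 5.14e-05), and the lowest was the retinal flippase ABCA4 at -2.97 (Q = 0.0185), with 11 counts on day 0 and 1 on day 10.

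Of the 18 detected genes for glutathione synthesis and conjugation, which supply the conjugates that MRPs carry, 8 were higher and 3 lower on day 1, and 4 were higher and 2 lower on day 10. These are 44.4% and 16.7% on day 1, beside 25.4% and 27.3% of all entries, and 22.2% and 11.1% on day 10, beside 16.1% and 15.8%. Their median was 0.21 on day 1 and 0.06 on day 10, or 0.10 and -0.06 when genes without a count on either day were set to their bound or left out. GSTM5, a glutathione S-transferase, was the highest called on day 1, with 0 counts over the day 0 libraries and 8 over those of day 1, at least 2.53-fold higher when 3 counts over the group are taken for day 0. GCLM, the modifier subunit of the enzyme that limits glutathione synthesis, had counts on both days and rose by 2.48 on the log2 scale on day 1 (SE 0.09, Q = 6.81e-26). It was also the highest on day 10, at 0.42 (Q = 0.000394). GSTO2, an omega-class transferase, was the lowest on day 1 at -1.81 (Q = 8.21e-07), and SLC7A11, the cystine importer, was the lowest on day 10 at -0.63 (Q = 2.62e-08).

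Of the 18 transcription factors and cofactors linked to these pumps, 4 were higher and 5 lower on day 1 and 3 were higher and 2 lower on day 10, with medians of 0 and 0.01, or -0.03 and 0.03 without the pair that had no count on the days compared. The shares of 22.2% and 27.8% on day 1 were near the 25.4% and 27.3% of all entries, and those of day 10 were 16.7% and 11.1%, beside 16.1% and 15.8%. KEAP1, the adaptor that holds NRF2 in check, was the highest on day 1 at 0.81 (Q = 1.03e-15), and the estrogen receptor gene ESR1 was the lowest at -1.10 (Q = 0.00152). On day 10 the highest was ARNT, the partner of the aryl hydrocarbon receptor, at 0.35 (Q = 3.98e-05), and the lowest was PPARA, a lipid-sensing receptor, at -0.31 (Q = 0.00412). Of the 16 detected uptake carriers, 8 were higher and 2 lower on day 1 and 6 were higher and 0 lower on day 10, with medians of 0.19 and 0.30, or 0.22 and 0.38 without 1 gene that had no count. The shares were 50% higher and 12.5% lower on day 1, beside 25.4% and 27.3% of all entries, and 37.5% and 0% on day 10, beside 16.1% and 15.8%. SLCO2B1, an organic anion importer, was the highest on both days, at 3.24 (SE 0.17, Q = 7.45e-20) and 1.74 (SE 0.19, Q = 5.08e-10), and its mean levels of days 0, 1 and 10 were 3.72, 35.1 and 12.4 CPM. SLCO1B1, the hepatic importer, was the lowest on day 1 at -1.51 (Q = 0.000142). The medians over all entries were -0.06 on day 1 and -0.02 on day 10.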

How the data were processed

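RNA of 35 libraries from RPMI-8226 cells was analysed, with 5 subcultures on each of 7 days and day taken from the labels. The authors deposited estimated counts per gene symbol and biotype, made with kallisto 0.44.0 on GENCODE transcripts of GRCh38.p12 with GC adjustment and summarized with length adjustment by tximport. They are whole numbers (84647 entries, 79 biotypes, 6519392 to 10962890 counts per library). Length adjustment and probabilistic assignment can move counts between the transcripts and biotypes of a gene.

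Protein-coding entries with a count (17999) were tested with edgeR 4.0.16 in R 4.3.3 (glmQLFit and glmQLFTest, TMM factors 0.929 to 1.08, day as a factor, no covariate, Benjamini–Hochberg over all entries). Calls used Q ≤ 0.05. Intervals from counts are exact and cover counting error only. For biotype shares, exact permutation tests (two-sided) were run in scipy 1.17.1. Positions are from GENCODE 44 (GRCh38). The method was first tested on simulated counts.

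The members and gene lists were chosen with earlier results of these data known. All members were named, and from each list the highest and lowest called gene on days 1 and 10. The 3 most similar time courses were named for members with a fold change above 2 on some day, leaving out ABCB1 for its few counts. Alternatives were RLE factors, no factors, filterByExpr, both days alone, the replicate number as a block, DESeq2 1.42.0, all biotypes summed, a fold change above 2, retained introns alone, and each library left out. The median transcript length was an alternative chosen after seeing the data. The number of a replicate was not used to pair libraries in the main fit, and whether it pairs them was not tested. No batch is given in the labels.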

Additional observations from a re-analysis of the deposited data

Results flagged for a closer look

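Among 63 groups of 5 values (levels of the 6 judged transporters and shares of non-coding biotypes on each day), 2 held a library far from the other 4 by Dixon's criterion, where chance alone would give about 3.15. ABCC5 was at 49.0 CPM in replicate 4 of day 2, with the other libraries at 32.2 to 36.5 CPM. Without that library the log2 fold change of ABCC5 on day 2 was the lowest of those with 1 library left out, at 0.87. The share of ABCC1 counts under non-coding biotypes was 2.77% in replicate 3 of day 2, with the others at 0.34% to 1.00%.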

How the results depend on the processing

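With a fold change above 2 required as well, days 1 and 4 had 2 called members each, day 2 had 3, day 6 had 0, and days 8 and 10 had 1 each, while the step between days 1 and 2 had 1 and the later steps had 0. With all biotypes summed, 2 members (ABCC5 and ABCG2) were called from day 2 to day 4. With retained introns alone, the share of ABCC4 on day 10 was 0.55 percentage points above day 0 (adjusted p = 0.770), opposite in sign to the uncalled main difference of -3.56. Leaving out 1 library at a time, 4 to 6 members were called on day 1, 4 to 5 on days 2, 4, 8 and 10, and 3 to 4 on day 6, with 4 to 5 for the step between days 1 and 2, 1 to 2 for that between days 4 and 6 (without the libraries named above for ABCC4), and 1, 0 and 1 at the other steps. The uncalled share difference of ABCC10 on day 10 ranged from -4.90 to 1.59 percentage points and changed sign without replicate 3 of day 0 (1.59) or replicate 2 of day 10 (0.69). Of the values for single members, 503 under other settings and 734 with 1 library left out kept their side of the threshold, while 10 and 11 gained a call, 6 and 25 lost one, and none changed sign while called. The call of ABCB1 on day 4 was lost without any 1 of replicates 1 and 3 of day 0 or 1, 2, 4 and 5 of day 4, and it was gained on days 1, 2, 6 or 8 without 1 of several libraries, and the cause was not tested. Same-numbered libraries of different days had a mean correlation of 0.0049 (from -0.12 to 0.14 over 105 pairs). For libraries of other numbers it was -0.0012 (from -0.17 to 0.16 over 420 pairs). Each library was also compared with the other-day libraries of each of the 5 numbers by its mean correlation. For 14 of the 35 libraries this mean was highest for their own number. Whether the numbers pair libraries was not tested. With the replicate block, 4 members were called on day 1, ABCC1 being the call that was lost (0.14, Q = 0.0558), 8 neighbouring pairs of days differed in place of 9, and no other count of members called changed. Depth limits ABCB1 and ABCC3 to detection and ABCC2 to large differences.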
